A study of Mus musculus with 16 samples.

Results

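The genes followed here belong to the hepatic acute-phase response of the mouse. They are Saa1, Saa2, Orm1, Orm2, Orm3, Hp, Crp, Apcs, Lcn2 and Serpina3n. They were taken by gene name, and all 10 were found among the 24539 genes of every count table. The livers came from male C57BL/6 mice that were 8 weeks old at the start and 16 weeks old when sampled. For 8 weeks the mice ate a high-fat diet (the HF group) or a high-fat diet with added betaine, a methyl donor (the HB group). No group on a standard diet was analysed here, so every comparison is between mice that both ate fat-rich food. Each liver group was measured as total polyadenylated mRNA, as mRNA pelleted with ribosomes and their nascent chains (ribosome-nascent chain complex mRNA, RNC), and as m6A RNA, the fragments enriched by immunoprecipitation of N6-methyladenosine. There were 2 libraries for each diet and each kind of measurement. Per the labels, the mRNA and RNC libraries were made from pooled independent experiments, so the spread between libraries and every p-value describe pools and not single mice.

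The acute-phase response is the change in plasma proteins that follows infection, injury or inflammation. Macrophages and other cells release interleukin-1, tumour necrosis factor and interleukin-6, and hepatocytes answer through NF-kB, STAT3 and C/EBP proteins by making more of the positive acute-phase proteins and less of the negative ones, such as albumin. Serum amyloid A and the orosomucoids are major acute-phase proteins in the mouse, whereas C-reactive protein, the classic human marker, responds weakly in mice, where the related pentraxin serum amyloid P does that part. m6A is a methyl mark on mRNA that is read by proteins acting on RNA decay and translation.

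The mRNA libraries held 11437462 to 22492813 reads and the RNC libraries 5778439 to 8659310. The 10 genes took 0.459% to 0.743% of the mRNA reads and 0.751% to 1.23% of the RNC reads. The HB RNC libraries lay unusually close together. Divided by its degrees of freedom, the chi-square of their counts was 1.40, whereas the other 3 pairs gave 34.7 to 98.5. They were therefore summed and counted as 1 sample, which left 7 libraries. For the HF RNC pair the opposite held, since the 10 genes differed between these libraries with an SD of the log2 ratio of 3.54, against 0.52 to 0.81 in the mRNA pairs. Hepatocyte markers were abundant in all libraries, as the liver label requires. The markers of other cell types are given where they moved together with a gene. In bulk tissue, fewer cells of a type and less RNA per cell cannot be told apart.

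Levels between genes were compared on the deposited RPKM scale (reads scaled by transcript length and by library size). Haptoglobin mRNA (Hp) stood far above the rest in HF, at 4743 ± 28.5 RPKM (SD, n = 2), rank 14 of all genes, followed by Orm1 at 631 ± 90.2 RPKM, rank 121. Serpina3n had 76.3 ± 3.27 RPKM, Saa1 70.3 ± 29.5 and Crp 49.1 ± 1.79. Orm3 had 43.8 ± 31.0 RPKM, Lcn2 36.6 ± 25.6 and Apcs 30.1 ± 8.70. Orm2 at 19.6 ± 4.40 RPKM and Saa2 at 18.9 ± 1.30 RPKM were the lowest. The library values of Hp, Orm1 and Serpina3n did not touch, and Apcs lay above Orm2 in both libraries. Every other pair of neighbours in this order overlapped, from Serpina3n and Saa1 down to Lcn2 and Apcs, and also Orm2 and Saa2.

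With betaine the order of the mRNAs was different below the top pair. Hp at 3588 ± 1427 RPKM and Orm1 at 582 ± 0.498 RPKM still led, now before Crp at 127 ± 28.8 RPKM and Serpina3n at 125 ± 9.50 RPKM. Crp and Serpina3n overlapped, as did Saa2 at 45.9 ± 9.52 and Apcs at 45.4 ± 5.62 RPKM. Saa1 (76.6 ± 14.4 RPKM) lay between these 2 pairs without touching them. At the lower end Orm2 had 11.9 ± 2.88 RPKM, Lcn2 10.9 ± 6.31 and Orm3 5.69 ± 0.658, and Orm2 and Lcn2 overlapped while both lay above Orm3. In the RNC libraries of HF, Orm3 (192 ± 137 RPKM) came next after Hp and Orm1, before Lcn2 (87.0 ± 45.2 RPKM) and Saa2 (59.4 ± 43.5 RPKM), and neighbours among these 3 overlapped. In the HB RNC pair Orm3 also followed Hp and Orm1, with 75.2 RPKM, but Lcn2 had 4.18, Apcs 0.584 and Saa2 0 RPKM.

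**Figure D1:**
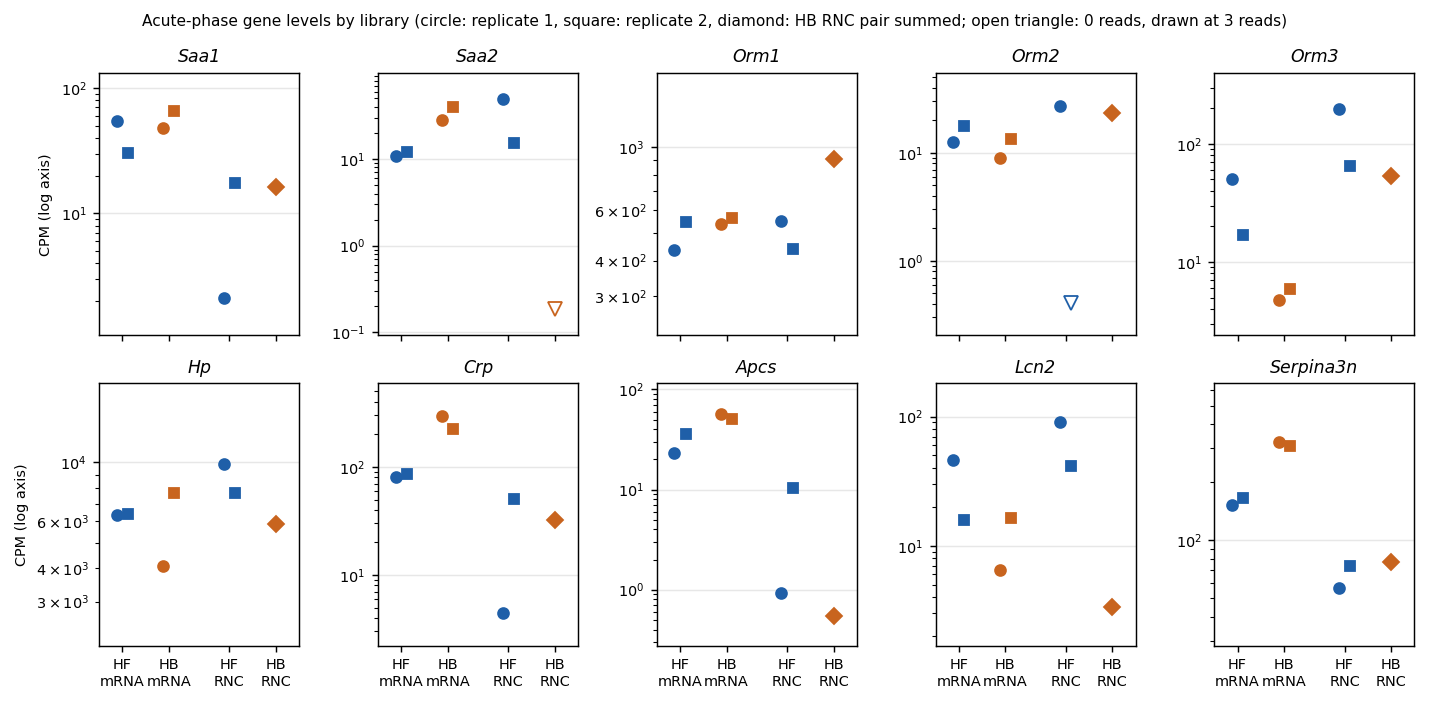
Level of each of the 10 genes in the 7 libraries, as TMM-scaled CPM (read counts scaled to library size, log axis), with HF in blue, HB in orange, circles and squares for replicates 1 and 2, a diamond for the summed HB RNC pair and an open triangle where there were 0 reads, drawn at the level of 3 reads. Saa2 is higher in HB than in HF mRNA and has 0 reads in the HB RNC pair, while Orm3 shows the lowest mRNA values in HB, 4.77 and 5.90 CPM.

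The first comparison asked which of these mRNAs differed when betaine was added to the high-fat diet. Crp, Saa2 and Serpina3n mRNA rose with betaine, about 3.10-fold, 2.92-fold and 1.97-fold in the fit, and Orm3 mRNA fell 6.38-fold. The other 6 mRNAs did not pass the test, and of these Hp, the most abundant, had a log2 change of -0.12 and Orm1 one of 0.15. In an edgeR quasi-likelihood fit of the 4 mRNA libraries, 3 of 10 genes were higher and 1 of 10 lower at an adjusted p under 0.05, which is what "called" means below. Of all 12817 genes tested, 21.4% were called, 11.3% higher and 10.1% lower, so a share of 4 in 10 has to be read against a background of about 1 in 5. The median log2 change of the 10 was 0.27, against 0.01 over all genes. On the TMM scale the HB values of 5 of the 10 did not overlap with the HF values, 4 above and 1 below. However, 64.9% of all genes had such a gap, 33.3% above and 31.7% below. Without HF mRNA replicate 1 or without HB mRNA replicate 1 only 2 of the 10 were called, and 0 in the 7-library fit, where 0 of 12634 genes passed and 1647 had an unadjusted p under 0.05. With total counts in place of TMM scaling the median of all genes moved to -0.28, and the share of called genes that were higher went from 52.8% to 25.2%.

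**Figure D2:**
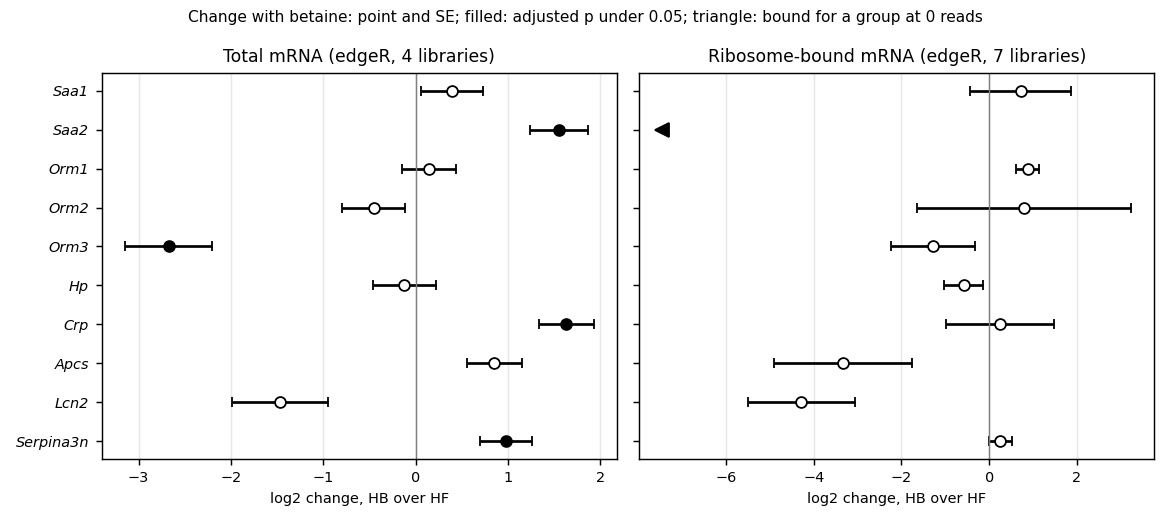
Log2 change of each gene, HB over HF, in total mRNA (left) and ribosome-bound mRNA (right), with bars of 1 SE; filled points passed an adjusted p of 0.05, and the triangle for Saa2 marks the bound set by 3 reads because the HB RNC pair held 0. In mRNA the filled points are Saa2, Crp and Serpina3n to the right and Orm3 to the left; in RNC the only filled one is Saa2.

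Saa1 and Saa2 encode the acute-phase forms of serum amyloid A, small apolipoproteins that ride on high-density lipoprotein. The genes lie side by side on chromosome 7, Saa1 at chr7:46740497-46743181 on the minus strand and Saa2 at chr7:46751833-46754313 on the plus strand (RefSeq, GRCm38.p6), and RefSeq lists each name also as a synonym of the other. They arose by duplication. Their RefSeq promoter windows, each the 250 bases before the start that the promoter table uses, matched at 238 of 249 aligned positions (95.6%). That start lies inside the gene for Saa1, so that 201 bases of its window overlap the annotated Saa1 body, whereas the Saa2 window ends at the gene's edge. The likeness of the transcripts themselves was not measured. How the counting assigned reads to each copy is uncertain, so values are given for each gene and for the sum. The Saa2 promoter is shown since Saa2 was called in 4 of the 5 comparisons of counts; the capitals mark a match to the C/EBP motif TTNNGNAA (chr7:46751583-46751832, plus strand).
Saa2 promoter: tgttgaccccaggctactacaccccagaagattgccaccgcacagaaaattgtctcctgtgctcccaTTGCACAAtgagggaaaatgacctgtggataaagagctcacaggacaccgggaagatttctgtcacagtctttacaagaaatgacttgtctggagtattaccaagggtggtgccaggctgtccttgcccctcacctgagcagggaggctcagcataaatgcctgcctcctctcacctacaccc
A 30-base stretch of both windows, inside the annotated gene for Saa1 and before it for Saa2, shows where the motif search told them apart (chr7:46743049-46743078, minus strand, for Saa1 and chr7:46751734-46751763, plus strand, for Saa2). The letters in capitals match the motif in Saa1, and the Saa2 stretch holds no match.
Saa1 stretch: cttgtctggagtTTTCCCAAgggtggtgcc
Saa2 stretch: cttgtctggagtattaccaagggtggtgcc

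Saa2 mRNA had 10.8 and 12.2 CPM in the HF libraries and 28.2 and 39.8 CPM in the HB libraries. Both HB libraries lay above both HF libraries, and the replicates of a diet were close. The log2 change was 1.55 (SE 0.31, edgeR adjusted p = 0.00948). Without HF mRNA replicate 1 the adjusted p was 0.0753, and over the alternatives it ran from 0.000130 to 0.430. Saa1 mRNA, in contrast, had 54.7 and 30.3 CPM in HF and 47.7 and 65.3 CPM in HB, and these ranges overlapped (log2 change 0.40, SE 0.33, adjusted p = 0.415). The sum of both genes was 65.5 and 42.5 CPM in HF against 75.9 and 105 CPM in HB, and it was not called (log2 change 0.73, adjusted p = 0.116). How the counting split reads between the copies was not tested.

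In the ribosome-bound libraries the same pair behaved very differently. Saa2 had 320 and 113 reads in the HF RNC libraries and 0 and 0 reads in the HB RNC libraries. Saa1 had 14 and 129 reads in HF RNC and 112 and 153 in HB RNC, so reads of this family were present in both HB libraries while none was given to Saa2. On the CPM scale Saa2 had 48.9 and 15.4 in HF RNC. Counting error sets a limit of 3 reads (0.184 CPM) on 0 reads in the summed HB pair. By that limit Saa2 was at least 175-fold lower in HB RNC than the HF mean. Against the lower HF library it was at least 83.7-fold lower. The limit does not cover losses to 0 between libraries of the same diet. In HF RNC replicates 1 and 2, Orm2 had 178 and 0 reads, and the neutrophil marker S100a9 had 0 and 149. The 7-library edgeR fit called Saa2 lower (adjusted p = 0.0201). That call was lost without any 1 of the 4 mRNA libraries (adjusted p = 0.102 to 0.108) and with the RNC libraries fitted alone (adjusted p = 1.00). Over all alternatives the adjusted p ran from 9.54e-06 to 1.00. The sum of both genes in RNC was 51.1 and 33.0 CPM in HF and 16.2 CPM in HB, with a log2 change of -1.37 that was not called (adjusted p = 0.234).

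The split of reads within the family shows the contrast most directly. Saa2 took 16.6% and 28.7% of the Saa1 and Saa2 reads in HF mRNA and 37.2% and 37.9% in HB mRNA. In HF RNC it took 95.8% (exact 95% interval 93.1 to 97.7) in replicate 1 and 46.7% (40.3 to 53.2) in replicate 2, so these replicates did not overlap. In HB RNC it took 0% of 112 and 0% of 153 reads, with exact upper limits of 3.24% and 2.38%. These intervals cover counting error only, since reads copied by PCR are not independent molecules.

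**Figure D3:**
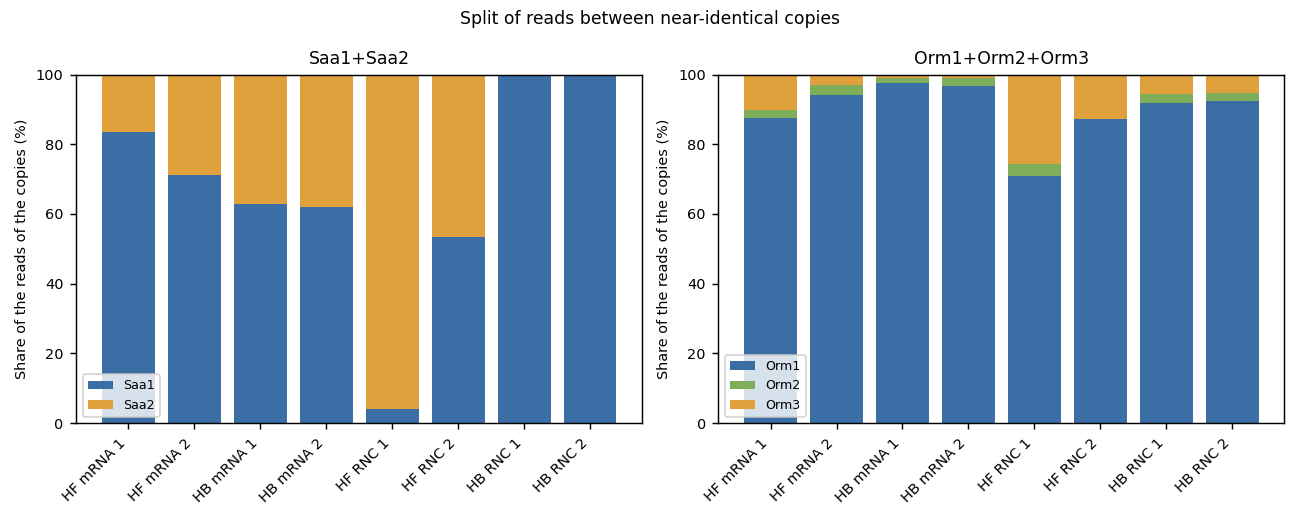
Share of reads (percent, from 0 to 100) given to each copy within the Saa1 and Saa2 family (left) and the Orm family (right), 1 bar per library. Saa2 is absent from both HB RNC bars although it takes 37.2% and 37.9% in HB mRNA, and the Orm3 share is largest in HF RNC replicate 1 at 25.7%.

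Orm1, Orm2 and Orm3 encode orosomucoids, the alpha-1-acid glycoproteins, which bind drugs and other small molecules in plasma. They sit in a row on chromosome 4, with Orm1 at chr4:63344556-63348163, Orm3 at chr4:63356069-63359506 and Orm2 at chr4:63362449-63365877. The promoter windows of Orm2 and Orm3, the latter with 89 bases inside the annotated gene, matched at 218 of 245 aligned positions (89.0%). A 30-base stretch of each is given because the minor copies parted in the data (chr4:63362322-63362351 for Orm2 and chr4:63356030-63356059 for Orm3, plus strand). Capitals again mark matches to the C/EBP motif, of which Orm2 holds 2 and Orm3 holds 1.
Orm2 stretch: gaacattTTGCGCAAgacaTTTCCCAAgtg
Orm3 stretch: gaacattTTGCACAAgacatttatcaagtg

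Orm3 had 50.2 and 17.1 CPM in HF mRNA and 4.77 and 5.90 CPM in HB mRNA. Both HB libraries lay below both HF libraries, but the HF libraries differed 2.94-fold from each other. The log2 change was -2.67 (SE 0.47, edgeR adjusted p = 0.00700). It was -1.71 without HF mRNA replicate 1 and -3.29 without HF mRNA replicate 2, and without HB mRNA replicate 1 the call was lost (adjusted p = 0.0822, with a range of 4.32e-11 to 0.912 over the alternatives). In RNC, Orm3 had 199 and 64.9 CPM in HF and 53.9 CPM in HB, a log2 change of -1.29 that was not called (adjusted p = 0.535). The HF libraries again differed by about 3.06-fold, and in both fractions it was HF replicate 1 that was high.

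Orm1, the main orosomucoid, had 437 and 547 CPM in HF mRNA and 536 and 562 CPM in HB mRNA, and these ranges overlapped. In RNC it had 549 and 440.5 CPM in HF and 909 CPM in HB. The HB value lay above both HF libraries, but the log2 change of 0.88 (SE 0.26) was not called (adjusted p = 0.139). Orm2 had 12.6 and 17.8 CPM in HF mRNA and 9.02 and 13.4 CPM in HB mRNA. In RNC it had 27.2 CPM in HF replicate 1, 0 reads in HF replicate 2 and 23.5 CPM in HB, so a comparison of diets for it depends on which HF library is read. The sum of the 3 genes did not pass the test in mRNA, with 499.7 and 582 CPM in HF and 549.8 and 582 CPM in HB (log2 change 0.05, adjusted p = 0.912). Within the family Orm3 took 10.04% and 2.94% of the reads in HF mRNA and 0.868% and 1.02% in HB mRNA. In RNC its share was 25.7% and 12.8% in HF and 5.71% and 5.29% in HB.

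Hp encodes haptoglobin, which binds free haemoglobin in plasma (chr8:109575128-109579172). Hp had 6332 and 6415 CPM in HF mRNA and 4100.0 and 7674 CPM in HB mRNA. On this TMM scale the HB libraries lay on either side of the HF libraries. In RPKM both HB libraries (2579 and 4597) lay below both HF libraries (4764 and 4723). The change was not called in the edgeR fit (log2 change -0.12, SE 0.34, adjusted p = 0.822). Its sign turned when HB mRNA replicate 1 was left out (log2 changes from -0.66 to 0.27 over the libraries left out). In RNC Hp had 9891 and 7668 CPM in HF and 5867 CPM in HB, a log2 change of -0.58 (adjusted p = 0.555). The summed markers of red blood cells, the source of haemoglobin, were 412 and 350.1 CPM in HF mRNA and 602 and 1752 CPM in HB mRNA. Of these 5 markers 3 were called higher, against 11.3% of all genes. Their part in the values of Hp was not tested.

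Crp and Apcs encode the short pentraxins, C-reactive protein and serum amyloid P component, which bind bacterial and cell debris surfaces and activate complement. They lie on chromosome 1, Crp at chr1:172698056-172699966 on the plus strand and Apcs at chr1:172893961-172895054 on the minus strand. The Crp promoter is printed because its mRNA had the change that kept its call with any 1 mRNA library left out (chr1:172697806-172698055, plus strand, C/EBP match in capitals).
Crp promoter: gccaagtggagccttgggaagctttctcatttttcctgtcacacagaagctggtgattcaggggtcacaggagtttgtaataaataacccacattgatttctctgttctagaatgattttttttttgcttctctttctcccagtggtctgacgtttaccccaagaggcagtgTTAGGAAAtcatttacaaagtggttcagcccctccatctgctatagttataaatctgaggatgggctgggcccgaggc

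Crp had 80.3 and 86.3 CPM in HF mRNA and 297 and 226 CPM in HB mRNA. The HF libraries nearly coincided, and both HB libraries were more than 2-fold above them. The log2 change was 1.63 (SE 0.29, edgeR adjusted p = 0.00726). The call held with each mRNA library left out in turn (adjusted p = 0.0134 to 0.0486) and was lost in the 7-library fit (adjusted p = 0.5995). In RNC Crp had 4.43 and 50.2 CPM in HF and 32.4 CPM in HB. The HB value fell between the HF libraries, which differed 11.3-fold, and the diets were not distinguished (log2 change 0.24, SE 1.22, adjusted p = 1.00).

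Apcs had 23.3 and 36.0 CPM in HF mRNA and 57.4 and 50.6 CPM in HB mRNA. Both HB libraries were above both HF libraries, with a log2 change of 0.85 (SE 0.30) that missed the threshold (adjusted p = 0.0602). In RNC Apcs was scarce, with 6 and 76 reads in HF and 3 and 6 reads in HB, that is 0.917 and 10.4 CPM against 0.552 CPM. The log2 change of -3.33 had an SE of 1.57 and was not called (adjusted p = 0.277). As for Crp, Saa1 and Orm2, the HF RNC libraries were far apart, here by 11.3-fold.

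Lcn2 encodes lipocalin 2, which binds bacterial siderophores and is made by hepatocytes in the acute phase and stored in neutrophil granules (chr2:32384637-32387739). Lcn2 had 46.1 and 15.9 CPM in HF mRNA and 6.50 and 16.3 CPM in HB mRNA. On this TMM scale HB replicate 2 lay just above HF replicate 2, so the groups overlapped. In RPKM they did not overlap, with 54.7 and 18.4 in HF and 6.45 and 15.4 in HB. The log2 change of -1.46 (SE 0.52) was not called (adjusted p = 0.0639), and it was called without HF mRNA replicate 2 (log2 change -2.09, adjusted p = 0.000834), with DESeq2 (adjusted p = 0.0230), without the low-count filter and with total counts, within a range of 0.000285 to 0.589. In RNC the HF libraries held 590 and 303 Lcn2 reads, and the HB libraries 21 and 34. That is 90.2 and 41.3 CPM against 3.37 CPM, a clear gap, but the log2 change of -4.28 (SE 1.22) was not called (adjusted p = 0.119). It was called with DESeq2 (adjusted p = 0.000456), with the HB RNC libraries kept apart (0.0150) and without HF RNC replicate 1 (0.00344) or 2 (0.000650), where no RNC group had a replicate, and the log2 change stayed between -4.74 and -3.61 over all alternatives, with adjusted p from 0.000456 to 1.00.

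Neutrophil markers moved the same way as Lcn2 in mRNA. Their summed level was 20.8 and 51.4 CPM in HF mRNA and 7.92 and 8.92 CPM in HB mRNA. All 4 of the 11 markers that could be tested (S100a8, S100a9, Csf3r and Cxcr2) were called lower, against 10.1% of all genes. Ly6g, a defining neutrophil marker, had 0 reads in all libraries. The order within HF was opposite, since the HF library with more Lcn2 was the one with the lower marker sum. In RNC the marker sum was 51.4 and 96.1 CPM in HF and 56.9 CPM in HB. Cxcr2 alone gave 51.4 and 46.9 CPM of it in HF and 39.2 CPM in HB. Only 1 of the 11 markers, Cxcr2, had reads in HF RNC replicate 1. The part of neutrophils in the Lcn2 values was not tested.

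Serpina3n encodes an inhibitor of serine proteases related to alpha-1-antichymotrypsin (chr12:104406646-104414334). Its replicates lay close together, with 152 and 165 CPM in HF mRNA and 326 and 307 CPM in HB mRNA. The diets were clearly separated, at a log2 change of 0.98 (SE 0.28, edgeR adjusted p = 0.0310). The size of the change hardly moved when a library was left out (0.91 to 1.01), but the call was lost without HF mRNA replicate 1 (adjusted p = 0.288), HF mRNA replicate 2 (0.199) or HB mRNA replicate 1 (0.0591). With total counts it was 0.69 and also not called (adjusted p = 0.0853, with a range of 0.00620 to 0.288). In RNC Serpina3n had 56.9 and 73.9 CPM in HF and 77.7 CPM in HB, a log2 change of 0.25 (adjusted p = 0.730).

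Of the 10 genes, 8 had a promoter window of 250 bases in the RefSeq table; Orm1 and Hp had none. For 5 of the 8 the window ends at the edge of the annotated gene, and for Saa1, Orm3 and Serpina3n 201, 89 and 62 bases lie inside it. Positions below are counted back from the end of the window. Searched on both strands, the C/EBP motif TTNNGNAA occurred in 7 of these 8, against 36.8% of 32851 promoters of the same length. The windows of Saa1 and Saa2 (95.6% identical) and of Orm2 and Orm3 (89.0%) share a match at an aligned place. The 7 are therefore not independent occurrences. The STAT motif TTCNNNGAA occurred in 1 of 8, Apcs, at 244 bases before that end, against 7.02% of all promoters. The NF-kB motif (GGG, any 2 bases, TT, any base, CC) occurred in 1 of 8, Serpina3n, at 171 bases before that end, against 4.11%. None of these matches overlapped another. A match of letters is a description of the sequence and no evidence of binding.

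The second comparison, of ribosome-bound mRNA between the diets, left 1 of the 10 genes called, Saa2, lower in HB. Over all 12634 genes tested, 11.5% were called, 7.61% higher and 3.94% lower. The median log2 change of the 10 was -0.17, against 0.00 over all genes. The HB value lay outside the HF range for 7 of the 10, for 2 above (Orm1 and Serpina3n) and for 5 below (Saa2, Orm3, Hp, Apcs and Lcn2), beside 52.8% of all genes, 32.3% above and 20.5% below. The common dispersion, a measure of spread between libraries, was 0.464 in this fit and 0.0644 in the fit of the mRNA libraries. Without any 1 mRNA library the calls of all genes were lost, that of Saa2 included. Without HF RNC replicate 1 or 2 calls rose among the 10, as they did among all genes. Those fits held no replicated RNC group and took their spread only from mRNA.

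The ratio of ribosome-bound to total mRNA sorted the genes into a few patterns within the HF diet. A value above 1 means a higher TMM-scaled CPM in RNC than in mRNA, which is not the same as a larger share of the reads. From the mean CPM, Orm3 had a ratio of 3.92, Saa2 one of 2.79 and Lcn2 one of 2.12. Hp had 1.38 and Orm1 1.01, close to even. The Orm2 ratio of 0.895 is the mean of unlike libraries, 27.2 CPM and 0 reads in RNC, and it has no common value. Serpina3n had 0.411, Crp 0.328, Saa1 0.232 and Apcs 0.190. Over all genes the median log2 ratio in HF was -0.56, and that of the 10 was -0.08. Only Serpina3n was called (log2 ratio -1.28, SE 0.22, edgeR adjusted p = 0.0125), 1 of 10 against 28.6% of all genes, of which 3.92% were higher and 24.7% lower in RNC. The RNC and mRNA values did not overlap for 7 of the 10, 3 higher and 4 lower in RNC, beside 63.6% of all genes, 15.8% higher and 47.8% lower. Its call was lost without HF mRNA replicate 1 or 2 (adjusted p = 0.0673 and 0.0858, with a range of 7.32e-06 to 0.0858), and then 0 of the 10 were called. The calls of all genes were lost in those fits too. In the fits without HF RNC replicate 1 or 2, which held no replicated RNC group, calls rose among the 10 and among all genes.

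Within the HB diet the ratios were spread more widely. Orm3 had a ratio of 10.1, Orm2 2.102, Orm1 1.65 and Hp 0.997. Lcn2 had 0.296, Saa1 0.288, Serpina3n 0.245, Crp 0.124 and Apcs 0.0102. Saa2 was at 0 reads, at least 185-fold lower in RNC than in mRNA by the 3-read limit, which covers counting error only. In the edgeR fit 3 of 10 genes were called, 1 higher and 2 lower, against 28.4% of all genes, 6.36% higher and 22.0% lower. Orm3 was higher in RNC (log2 ratio 3.34, SE 0.89, adjusted p = 0.0477), while Serpina3n (log2 ratio -2.03, SE 0.29, adjusted p = 0.0181) and Saa2 (adjusted p = 0.0181) were lower. Apcs, with a log2 ratio of -6.59 (SE 1.84), missed the threshold (adjusted p = 0.0553). The median log2 ratio of the 10 was -1.77, against -0.71 over all genes. For 9 of the 10 the RNC value lay outside the mRNA values, 3 above and 6 below, beside 91.4% of all genes, 33.3% above and 58.0% below. Without any 1 mRNA library the calls of all genes were lost, those of the 10 included. Without either HF RNC library, which left no replicated RNC group, the count among the 10 rose, as it did among all genes. Without HB RNC replicate 1 the count was 2, since Orm3 lost its call (adjusted p = 0.0522). The Orm3 adjusted p ran from 0.000194 to 0.231 over the alternatives. Summing the copies gave the orosomucoids a log2 ratio of 0.80 that was not called (adjusted p = 0.135), whereas the sum of Saa1 and Saa2 stayed called lower (log2 ratio -2.48, adjusted p = 0.0279).

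The last comparison of the counts asked whether that ratio changed with betaine. It was called for 1 of the 10 genes, Saa2 (edgeR interaction, adjusted p = 0.0319), against 10.5% of all genes, 6.49% higher and 4.02% lower. Its ratio was 2.79 in HF and at most 0.00541 in HB, with 3 reads taken as the limit. By that limit, which covers counting error only, the ratio was at least 516-fold lower. The HF RNC libraries differed 3.18-fold, and with the lower of them the HF ratio was 1.34 and the bound at least 247-fold. The call was lost without any 1 mRNA library (adjusted p = 0.176 to 0.188) and for the sum of Saa1 and Saa2 (log2 change -2.11, adjusted p = 0.147), and the range over the alternatives was 2.56e-06 to 0.188. Apcs had a change of -4.20 (SE 1.86, adjusted p = 0.323), Lcn2 of -2.84 (SE 1.33, adjusted p = 0.331) and Serpina3n of -0.75 (SE 0.35, adjusted p = 0.331). For Crp the change was -1.40 (SE 1.63) and for Saa1 0.31 (SE 1.52), with errors larger than the values. Without any 1 mRNA library the calls of all genes were lost, and that of Saa2 with them. In the fits without HF RNC replicate 1 or 2, which held no replicated RNC group, calls rose among the 10 and among all genes.

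Methylation was compared through the peaks that the authors called in each m6A library, 22060 to 25718 of them, and the fold enrichment of a peak is the authors' value. A gene was counted as carrying a peak where a peak touched its body by at least 1 base. In HF replicates 1 and 2, 5 and 5 of the 10 genes carried a peak, beside 59.7% and 62.6% of all genes. In HB replicates 1 and 2 it was 3 and 3 of the 10, beside 58.9% and 59.6%. Of the 10 genes, 2 carried a peak in all 4 libraries, Crp and Serpina3n, against 35.9% of the 12478 tested genes that could be placed on the genome. Saa1, Saa2, Orm1 and Lcn2 carried none, whereas 82.6% of all genes had a peak in at least 1 library. The bodies of these peakless genes are 2481 to 3608 bases long. Those of the genes with a peak run from 1094 bases (Apcs) and 1911 (Crp) to 7689 (Serpina3n). A longer body has more room for a peak, and gene length was not taken into account. Crp had a single peak at the same place in each library, for instance chr1:172698488-172699120 in HF replicate 2 (mm10), with summits 767 to 779 bases from the gene start. Its fold enrichment was 44.2 and 53.9 in HF and 19.0 and 21.5 in HB, and within the own list of each library these peaks stood at percentiles 99.8, 99.8, 82.3 and 97.4. The peaks of each library were called separately, so these enrichments stand side by side and were not tested. Serpina3n had its peak 2425 to 2454 bases from the start, with enrichments of 13.7 and 15.9 in HF and 12.9 and 10.1 in HB.

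Apcs carried a peak in both HF libraries and in no HB library, with fold enrichments of 7.16 and 8.24 at overlapping positions, as did 3.13% of all genes. The deposited lists start at an enrichment of 6.00, and these Apcs peaks stood at percentiles 25.3 and 32.0 of their own lists. Orm3 had peaks in 3 libraries, but at 3 different places, with summits 1627 and 1014 bases from the start in HF replicates 1 and 2 and 3313 bases in HB replicate 2. Orm2 had a peak near its end in HF replicate 1 (fold enrichment 11.6) and HB replicate 1 (6.65). Hp had a peak in HF replicate 2 only, at chr8:109575189-109576012, with a fold enrichment of 7.67. Reads of genes alike in sequence can be placed on either copy, and the likeness of the transcripts was not measured. The Orm peaks and the lack of peaks on Saa1 and Saa2 therefore carry the same uncertainty as the counts.

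**Figure D4:**
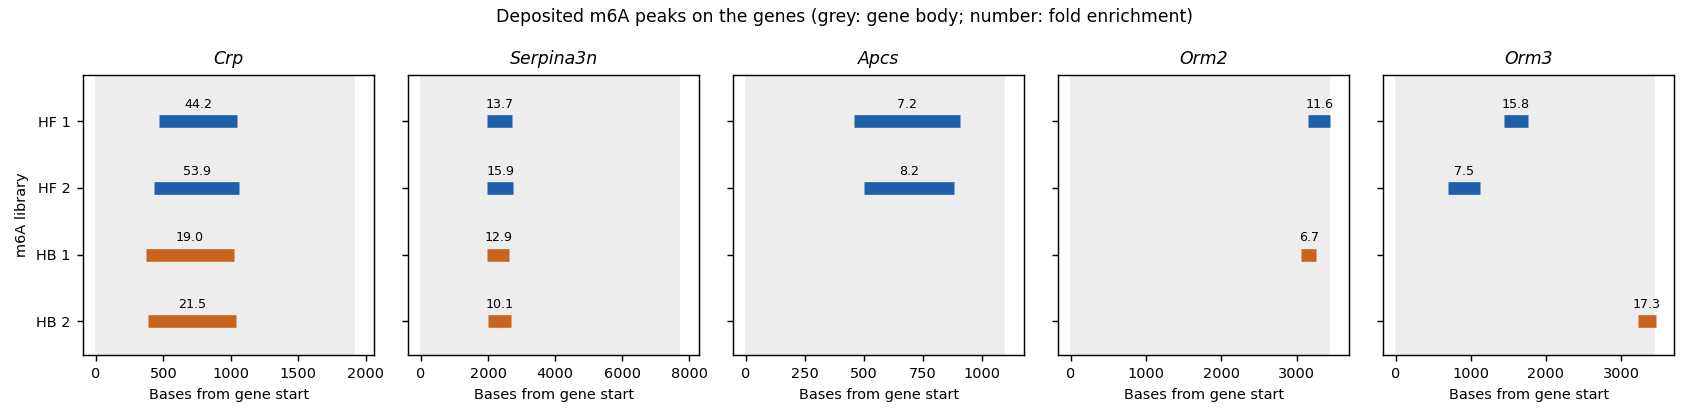
Deposited m6A peaks of 5 genes in the 4 m6A libraries (HF in blue, HB in orange), drawn by distance in bases from the gene start over the gene body in grey, with each peak's fold enrichment above it. Crp and Serpina3n show 1 peak at a constant place in all 4 libraries, Apcs shows peaks only in the HF libraries, and the Orm3 peaks lie at 3 different places.

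Other genes of the pathway were taken from general lists, and not from how they moved. Their mRNA calls stand beside 11.3% higher and 10.1% lower among all genes. Of 8 cytokine genes only 2 had enough reads to be tested in mRNA, and Il6, the main inducer of the hepatic response, had 0 reads in every library. Il1a was called lower with betaine (log2 change -1.34, adjusted p = 0.0421) at levels of 6.36 and 11.02 CPM in HF and 4.09 and 2.81 CPM in HB. Of 17 receptors and kinases tested, 0 were called higher and 3 lower, with edgeR and with DESeq2 alike, and 1 was higher at an unadjusted p under 0.05. Il1r1, the signalling receptor of interleukin-1, had 423 and 347 CPM in HF mRNA and 29.9 and 69.3 CPM in HB mRNA (log2 change -2.97, SE 0.41, adjusted p = 0.00403). Osmr, a receptor subunit for oncostatin M, fell by 1.87 and Ikbkb, a kinase that activates NF-kB, by 0.82 on the log2 scale. Among 17 transcription factors 13 had a negative change, and 0 were called lower (1 at an unadjusted p under 0.05, and 0 with DESeq2). Of 9 feedback genes Nfkbiz, an NF-kB cofactor, was called lower (log2 change -1.56, adjusted p = 0.00961). The medians of these lists were -0.32 for receptors and kinases, -0.52 for transcription factors and -0.57 for feedback genes, against 0.01 over all genes.

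In the ribosome-bound libraries, 1 of 2 cytokines tested was called, Il1a, and in the opposite direction to its mRNA. It had 0 reads in both HF RNC libraries and 26 and 26 reads in the HB ones (edgeR adjusted p = 0.0261), and its ratio of RNC to mRNA was called higher in HB as well (adjusted p = 0.0344). Of the downstream genes, 1 receptor was called higher and 1 kinase lower of 17, and 1 transcription factor higher and 2 lower of 17. Over all genes 7.61% were called higher and 3.94% lower in RNC. Stat3, the factor through which interleukin-6 acts, had 34.4 and 34.1 CPM in HF RNC and 9.13 CPM in HB RNC (log2 change -1.90, SE 0.35, edgeR adjusted p = 0.0309), with 111 and 86.9 CPM in HF mRNA and 71.4 and 87.2 CPM in HB mRNA. Foxa2, a hepatocyte factor, fell by 2.74 and Ikbkb by 1.87 on the log2 scale in RNC. Il6ra, the receptor subunit for interleukin-6, had 0 reads in both HF RNC libraries and 21.4 CPM in HB RNC, while its mRNA had 17.4 to 27.9 CPM in all 4 libraries. Jun, a subunit of AP-1, was the factor called higher, with 0 reads in both HF RNC libraries and 10.8 CPM in HB RNC. Without any 1 mRNA library 0 genes of all were called in RNC, these included, although 1923 to 2239 genes had an unadjusted p under 0.05.

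The remaining positive acute-phase proteins went both ways, as the 10 genes did. Of 34 tested in mRNA, 9 were called higher and 4 lower, with a median log2 change of 0.37. Of all genes, 11.3% were called higher and 10.1% lower. C9, the terminal complement component, rose by 2.11 and Serpina1a, an alpha-1-antitrypsin, by 1.59 on the log2 scale, while Mt2, a metallothionein, fell by 2.96. Mt2 levels were uneven, with 375 and 92.1 CPM in HF mRNA and 3.67 and 56.8 CPM in HB mRNA. Of the 11 negative acute-phase proteins, 3 were called higher and 0 lower, with a median of 0.51 and, at an unadjusted p under 0.05, 1 lower (0 with DESeq2). The called ones were Trf, the iron carrier transferrin (log2 change 1.36), Rbp4, the retinol carrier (1.27), and Ahsg, fetuin A (1.20). In RNC 0 of the 34 positive and 0 of the 11 negative proteins were called in the edgeR fit, against 11.5% of all genes. At an unadjusted p under 0.05 there were 1 positive protein higher, 4 lower and 0 negative ones, and DESeq2 called 1 higher, 5 lower and 0. The smallest adjusted p among them belonged to Saa4 (log2 change -2.09, adjusted p = 0.0742). Saa4 is the constitutive serum amyloid A, so it belongs to the positive list only loosely, and it was 1 of the 4 called lower in mRNA. It had 2687 and 2070 CPM in HF RNC and 558 CPM in HB RNC. In mRNA it had 1414 and 803 CPM in HF and 375 and 548 CPM in HB.

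Markers of hepatocytes summed to 65509 and 70273 CPM in HF mRNA and 100040 and 89011 CPM in HB mRNA, and 0 of 7 were called in edgeR (1 at an unadjusted p under 0.05, and 1 with DESeq2). Macrophage markers summed to 287 and 323 CPM in HF and 381 and 386 CPM in HB, with 3 of 9 called higher, against 11.3% of all genes. Adipocyte markers summed to 43.0 and 10.7 CPM in HF and 57.3 and 74.1 CPM in HB, with 1 of 5 tested. Nearly all of that sum was Cidec (42.8, 10.6, 57.1 and 73.0 CPM), and Adipoq, Lep, Plin1 and Retn each had 0 to 0.824 CPM. Most of the hepatocyte sum was Alb (43735 and 51782 CPM in HF, 77730 and 61849 in HB), which is also a negative acute-phase protein. Of the 7 hepatocyte markers 6 had a positive log2 change and 1, Hpd, a negative one (-0.15). Clec4f, the largest macrophage marker, had a log2 change of -0.21, and the other 8 had positive ones. The sums of the 3 lists were higher in HB as were Saa2, Crp and Serpina3n, and the part of these cell types in those results was not tested.

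**Figure D5:**
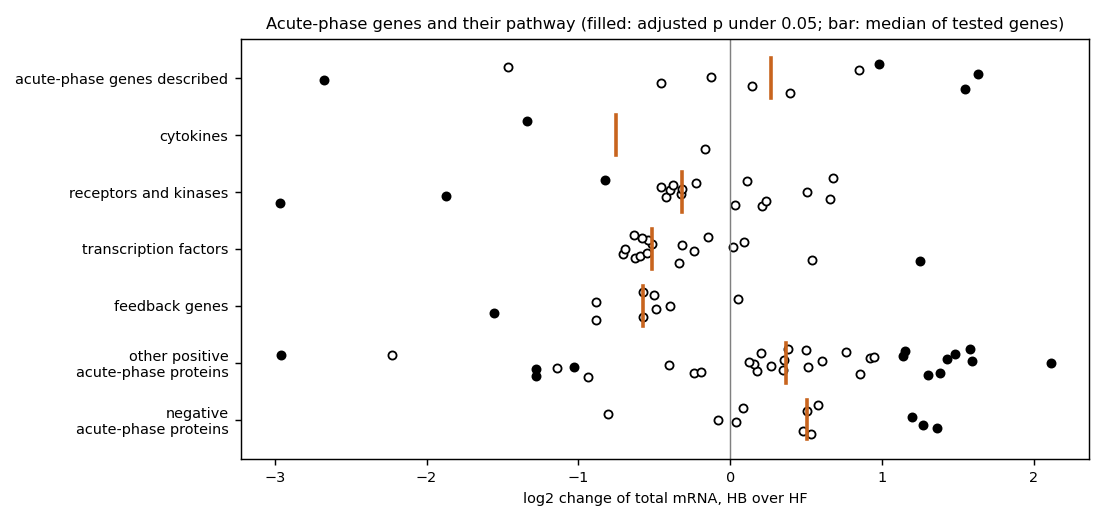
Log2 change of total mRNA, HB over HF, for each tested gene of the acute-phase lists, 1 point per gene, filled where the adjusted p was under 0.05, with a bar at the median of each list. The acute-phase genes range from -2.67 for Orm3 to 1.63 for Crp, and the medians of cytokines, receptors, transcription factors and feedback genes lie below 0 while those of both plasma protein lists lie above.

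The 10 genes did not follow a single profile over the 7 libraries. The log2 CPM of Crp went with that of Saa1 (Pearson r = 0.945) and Serpina3n (r = 0.915) and opposite to that of Orm3 (r = -0.94), whereas Orm3 and Serpina3n had r = -0.95. Saa2 had r = -0.04 with Saa1. These correlations describe 7 libraries that share the split into mRNA and RNC, and carry no test. Among 9523 genes outside the lists with a mean of at least 5 CPM, the genes most like the mean profile of the 10 were Efhd2 (r = 0.989), Snrpg (0.960), Atp5j (0.959), Egln2 (0.947) and Pfn1 (0.946), over the same 7 libraries.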

How the data were processed

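Livers of HF and HB mice were measured as mRNA, RNC and m6A libraries, 12 of the 16 samples in the labels; the m6A inputs were not analysed here. The deposited read counts are reads per gene with splice variants merged, and the deposited RPKM values scale them by transcript length and library reads, per the file headers; alignment was to RefSeq transcripts per the labels. The deposited m6A peaks give a pileup signal and a fold enrichment (a ratio), per the file headers. The submitters' processing notes name, without roles and for the mm10 build, the aligner HISAT2 2.0.4, the peak caller MACS2 2.1.0.20151222, the motif suite HOMER 4.8, edgeR, the counter HTSeq 0.6.0 and the trimmer cutadapt 1.9.3.

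Counts were fitted with edgeR 4.0.16 in R 4.3.3 (TMM scaling, filterByExpr, quasi-likelihood F test, Benjamini-Hochberg over all genes, threshold 0.05). The mRNA comparison used the 4 mRNA libraries (12817 genes, 2 residual degrees of freedom). RNC and ratio comparisons used 7 libraries with the HB RNC pair summed (12634 genes, 3 residual degrees of freedom), and the spread of that lone sample was assumed to be like that of the others. The SE of a log2 change was taken from the change and its F statistic. The code was tested on simulated counts, with 100 changed genes of each size and 1 dispersion for all genes. At 0.06 the mRNA comparison recovered 19 true log2 changes of 1 and 88 of 2. The change of the ratio, also at 0.06, recovered 1 and 10. The 7-library fit that tests it had a common dispersion of 0.464, at which its recovery was not simulated. At 0.46 the RNC comparison and the ratio in HF recovered 0 and 0. In the data these called 11.5% and 28.6% of all genes, so a simulation with 1 dispersion does not resemble them fully. A gene that was not called in RNC or in a ratio may therefore still have changed. Promoters and gene positions came from RefSeq (GRCm38.p6).

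The 10 genes, the lists and the tests were chosen with earlier results of these data known. All 10 were always named; from each other list up to 3 called genes with the largest change, or up to 2 with the smallest p, were candidates for naming, and other genes were named where they bear on a cell type or a count. Alternatives were other scalings, DESeq2 1.42.0, no low-count filter, other sets of libraries, a replicate block, summed copies and each library left out. Same-numbered libraries did not deviate together (r from -0.13 to 0.09 over 9583 genes), so numbers were not taken as pairs. The result of 1 gene of these lists is not reported here.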

Additional observations from a re-analysis of the deposited data

Results flagged for a closer look

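The ratio of ribosome-bound to total Saa2 mRNA differed between the diets by a test of the difference itself (edgeR interaction, adjusted p = 0.0319). The genes and tests were chosen with earlier results of these data known, so this p is no independent support. Saa2 had 128 and 143 reads in HF mRNA, 538 and 580 in HB mRNA, 320 and 113 in HF RNC, and 0 and 0 in HB RNC. Its neighbour Saa1 had 112 and 153 reads in those HB RNC libraries, and for the sum of the 2 genes the edgeR interaction had an adjusted p of 0.147. How reads of the pair were assigned in each table was not tested.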

How the results depend on the processing

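Of the 10 genes, the mRNA comparison called 4, and 0 in the 7-library fit; with 1 library left out it called 2 to 4. The RNC comparison called 1, 3 with DESeq2, 3 with the HB RNC libraries kept apart, 0 with the RNC libraries alone, and 0 to 5 with 1 library left out. The ratio in HF called 1, 2 with DESeq2, and 0 to 7 with 1 library left out. The ratio in HB called 3, 6 with DESeq2, 5 with the HB RNC libraries kept apart, and 0 to 8 with 1 library left out. The change of the ratio called 1, and 0 to 5 with 1 library left out. The number of genes with m6A peaks in all libraries was 2 throughout. A replicate block gave 3 calls in RNC and 5 in the HB ratio, with the HB RNC libraries kept apart, and Orm1 in the HF ratio at -0.0057; in mRNA it called 2936 of all genes against 2740, and crossed numbers 3407. Over all genes, RNC calls were 1459, with 2874 (DESeq2), 2419 (HB RNC kept apart) and 0 (RNC alone, 338 at an unadjusted p under 0.05). The ratio in HB had 3584 calls and 5428 with the HB RNC libraries kept apart. The change of the ratio had 1328, and 2187 (DESeq2) and 2053 (kept apart). With 1 library left out these counts ran from 776 to 3024 in mRNA, 0 to 4966 in RNC, 0 to 7856 for the ratio in HF, 0 to 8191 in HB and 0 to 4859 for its change; the counts of 0 had at least 1762 genes at an unadjusted p under 0.05. Signs turned in mRNA for Orm1 with total counts (-0.14) and for Orm2 and Orm3 with summed copies (0.052). They turned in RNC with summed copies for Saa1 (-1.37) and Orm3 (0.62), and in the change of the ratio for Saa1 (-2.11). In the HF ratio they turned with summed copies for Saa2 (-0.36) and Orm2 (0.24), and for Orm1 with the HB RNC libraries kept apart (-0.0073). In the HB ratio that of Hp turned with RLE scaling (0.021), DESeq2 (0.021) and total counts (0.38). Leaving out 1 library turned the sign, in mRNA, of Orm1 (-0.021 to 0.27), Saa1 (-0.014 to 0.87) and Hp (-0.66 to 0.27). It did so in RNC for Saa1 (-0.11 to 2.92), Crp (-0.63 to 2.87) and Orm2 (-0.21 to 11.31). It did so in the HF ratio for Orm1 (-0.16 to 0.18) and Orm2 (-10.68 to 0.84) and in the HB ratio for Hp (-0.39 to 0.54). In the change of the ratio it did so for Saa1 (-0.52 to 2.51), Hp (-0.85 to 0.068) and Crp (-2.28 to 1.22). The cause was not tested. The alternative that asks for peaks lying mainly in exons was not run. With 2 libraries per group and 3 to 76 Apcs reads per RNC library, small changes were not detectable. In RNC counts simulated with 1 dispersion of 0.46 for all genes, true log2 changes of 2 were not recovered either.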
